A study of Saccharomyces cerevisiae with 6 samples.

Results

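RNA reads were followed under 9 annotated open reading frames of the budding yeast Saccharomyces cerevisiae, each lying directly upstream of a gene for nitrogen use or autophagy and on the same strand as it. These 9 of the 7127 features in the deposited tables were YDL214C or PRR2 (next to GDH2), YIL145C or PAN6 (next to ATG32), YHR036W or BRL1 (next to PUT2), YJL109C or UTP10 (next to GZF3), YLR212C or TUB4 (next to ATG38), YPL150W (next to ATG5), YBR096W (next to VPS15), YPL101W or ELP4 (next to ATG21) and YLR141W or RRN5 (next to PUT1). They were picked by position and with their reads in nitrogen starvation in view, so their values in that condition, fitted values and calls included, are given as a description that supports nothing. The haploid laboratory strain BY4741, which by its known genotype lacks HIS3, LEU2, MET17 and URA3, was used in all groups. Cells growing in log phase in synthetic complete medium were starved of nitrogen for 1 h, starved of potassium for 1 h or kept growing untreated for 1 h as the control, and each group had 2 libraries, 1 from each of 2 batches. RNA was read by sequencing of polyadenylated transcripts from whole cultures, in which fewer cells and less RNA per cell cannot be told apart. The labels do not say that the libraries of a group came from separate cultures, so p-values measure only the spread between these libraries.

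When a good nitrogen source is withdrawn, yeast lifts nitrogen catabolite repression: GATA factors such as Gln3 and Gat1 activate genes for the use of poor sources, and Dal80 and Gzf3 oppose them at GATA sequences. Autophagy, in which the vacuole receives and digests parts of the cell, is switched on at the same time. Yeast promoters are known to start transcripts in both directions, so that a noncoding transcript can run from a gene's promoter back over the gene upstream of it.

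Totals ran from 357839 to 425919 reads per library. The reads under an identifier need not come from the strand its name stands for. In 348 loci a gene and a feature lying opposite it averaged 20 reads or more between them, and the opposite feature held more reads per base in 328. At these loci reads thus lay mostly under the identifier on the strand opposite the gene. None of the 9 upstream features, and none of their neighbours, had such a feature opposite it, so the strand of their reads was not measured, and the files give no position of reads within a feature. On the strand opposite its name, transcription within each of the 9 runs away from the start of its downstream neighbour. Reads under the 9, their neighbours and any other feature named below were therefore not taken as levels of those genes' messages. Below, rose and fell refer to reads under an identifier.

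The stretch between each feature and its neighbour's start codon was 216 to 580 bases long, with a median of 411, against a median of 400 bases (quartiles 277 and 631) for all 2876 tandem neighbours of the R64 annotation. Promoters are where GATA factors are known to act, and 4 of the 9 neighbours held the GATA factor core GATAAG, on either strand, in the 300 bases from 250 before to 50 after the neighbour's start. Those 4 windows, and that of GDH2, whose upstream feature held by far the most reads, were read from the RefSeq R64 genome on the neighbour's strand and are printed from 5′ to 3′ with GATAAG, or its reverse complement CTTATC, in capitals.
ATG32, chrIX:75724-76023, minus strand: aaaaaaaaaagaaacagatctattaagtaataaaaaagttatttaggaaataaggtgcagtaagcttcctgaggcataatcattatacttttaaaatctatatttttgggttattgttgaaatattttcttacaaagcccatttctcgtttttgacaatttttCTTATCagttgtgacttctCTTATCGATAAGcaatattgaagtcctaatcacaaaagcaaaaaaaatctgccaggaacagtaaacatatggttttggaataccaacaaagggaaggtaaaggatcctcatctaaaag
GZF3, chrX:211528-211827, minus strand: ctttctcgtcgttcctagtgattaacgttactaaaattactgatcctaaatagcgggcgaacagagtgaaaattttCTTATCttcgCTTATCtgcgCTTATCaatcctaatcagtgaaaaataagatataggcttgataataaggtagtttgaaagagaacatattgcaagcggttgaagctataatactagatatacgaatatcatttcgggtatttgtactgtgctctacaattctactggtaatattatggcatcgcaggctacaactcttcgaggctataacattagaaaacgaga
PUT2, chrVIII:181727-182026, plus strand: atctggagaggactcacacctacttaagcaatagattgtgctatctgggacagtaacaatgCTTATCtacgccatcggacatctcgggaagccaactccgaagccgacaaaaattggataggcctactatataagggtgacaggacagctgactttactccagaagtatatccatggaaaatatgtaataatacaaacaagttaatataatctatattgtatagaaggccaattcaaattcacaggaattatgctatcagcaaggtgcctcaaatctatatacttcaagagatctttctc
PUT1, chrXII:424936-425235, plus strand: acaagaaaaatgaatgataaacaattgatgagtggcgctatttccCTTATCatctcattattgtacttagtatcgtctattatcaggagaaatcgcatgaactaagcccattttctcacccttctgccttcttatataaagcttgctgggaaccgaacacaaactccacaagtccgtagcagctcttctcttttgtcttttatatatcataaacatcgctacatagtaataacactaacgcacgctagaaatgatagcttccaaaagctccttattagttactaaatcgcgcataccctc
GDH2, chrIV:73869-74168, minus strand: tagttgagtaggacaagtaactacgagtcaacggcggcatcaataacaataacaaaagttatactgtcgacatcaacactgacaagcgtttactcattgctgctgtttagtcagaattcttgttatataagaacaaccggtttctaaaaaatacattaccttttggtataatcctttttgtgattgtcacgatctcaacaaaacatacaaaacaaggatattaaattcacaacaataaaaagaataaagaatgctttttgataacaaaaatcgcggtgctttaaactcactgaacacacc

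The ATG32 window held 3 such sites, starting 87, 68 and 62 bases before the start codon, and the last pair abut to form a palindrome. The GZF3 window also held 3, at 174, 164 and 154 bases, spaced evenly and all read as CTTATC. PUT2 held 1 site at 189 bases and PUT1 held 1 at 205 bases. At least 1 site was found in 14.7% of the 6001 windows of this size in the genome, and 3 or more in 0.167% of them, 10 windows in all. Other nitrogen-use genes, DAL7 among them, also held 3 or more, as given below. The windows of GDH2, ATG38, ATG5, VPS15 and ATG21 held none, nor did the 600 bases before each of these 5 start codons, a length at which 26.8% of 5999 genes held at least 1. The shorter core GATA, which lies within every GATAAG, was in 94.3% of windows. A match says only that these letters are present.

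**Figure D1:**
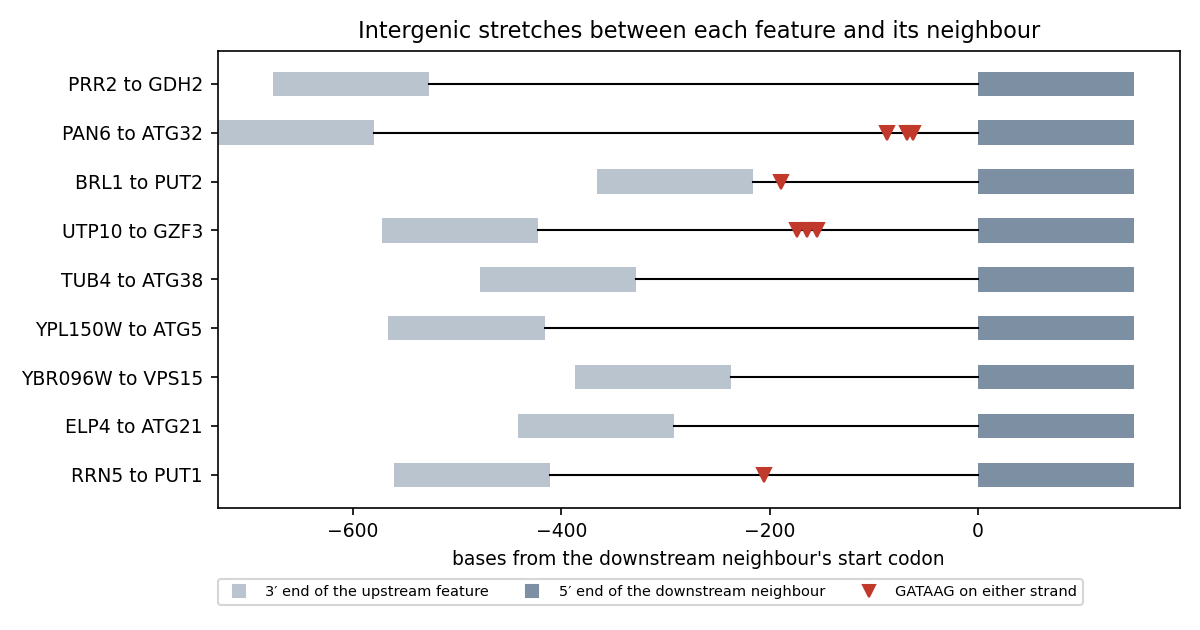
Map of the intergenic stretch between each upstream feature (light bar, its last 150 bases) and its downstream neighbour (dark bar, its first 150 bases), in bases from the neighbour's start codon. Triangles mark GATAAG on either strand; ATG32 and GZF3 have 3 each, PUT2 and PUT1 have 1 each, and the other 5 stretches have none.

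PRR2 stood apart from the rest. The gene, for a protein kinase, lies on chromosome IV, minus strand, at 74446 to 76545, with a single exon, and its neighbour GDH2 encodes the glutamate dehydrogenase that releases ammonium from glutamate. The identifier held 8551 and 6741 reads in the nitrogen libraries, 184 and 59 in the potassium libraries, and 14 and 15 in the control libraries. The nitrogen libraries lay far above all the others, and the potassium libraries lay above both controls. PRR2 ranked 2 among all features by reads in each nitrogen library, where it took 2.39% and 1.80% of the reads, against 0.00329% and 0.00359% in the control libraries. As CPM, reads per effective library size by the trimmed mean of M-values (TMM), it averaged 10346 ± 1414 CPM in nitrogen-starved cells, 391 ± 184 CPM in potassium-starved cells and 55.7 ± 9.82 CPM in control cells (SD, n = 2 each).

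PAN6, for pantothenate synthase of coenzyme A synthesis, lies on chromosome IX, minus strand, at 76354 to 77283, and its neighbour ATG32 encodes the receptor that marks mitochondria for autophagy. It held 1180 and 883 reads in the nitrogen libraries, 20 and 16 in the potassium libraries, and 6 and 5 in the control libraries. The groups did not overlap, and the order of nitrogen, potassium and control was that seen for PRR2. UTP10, for a large nucleolar protein of small-subunit ribosome assembly, lies on chromosome X, minus strand, at 212000 to 217309. Its neighbour GZF3 encodes a GATA factor that represses nitrogen genes. UTP10 held 360 and 436 reads in the nitrogen libraries, 27 and 5 in the potassium libraries, and 3 and 3 in the control libraries. The pair of potassium libraries differed more from each other here than for PAN6.

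BRL1, for a membrane protein of nuclear pore assembly, lies on chromosome VIII, plus strand, at 180345 to 181760, ahead of PUT2, which encodes the second enzyme of proline breakdown. It held 239 and 176 reads in the nitrogen libraries, 4 and 3 in the potassium libraries, and 5 and 9 in the control libraries. Its order in potassium starvation differed from that of the 3 features above, whose potassium libraries both lay above both controls in CPM. The BRL1 potassium values lay below both controls, at 12.3 ± 1.36 CPM in potassium-starved cells and 27.5 ± 14.3 CPM in control cells (SD, n = 2 each). These rest on few reads, and neither BRL1 nor UTP10 was called in potassium starvation, as given below. RRN5, for a subunit of a transcription factor for RNA polymerase I, lies on chromosome XII, plus strand, at 423683 to 424774, ahead of PUT1, the gene for proline oxidase. It held 33 and 19 reads in the nitrogen libraries, 7 and 7 in the potassium libraries, and 5 and 6 in the control libraries. After TMM scaling RRN5 averaged 35.1 ± 12.3 CPM in nitrogen-starved cells and 21.2 ± 5.41 CPM in control cells (SD, n = 2 each), a gap much smaller than that of BRL1, which averaged 281 ± 51.7 CPM in nitrogen-starved cells.

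The remaining 4 features lie ahead of autophagy genes and held few reads in any library. TUB4, for gamma-tubulin, lies on chromosome XII, minus strand, at 564860 to 566281, ahead of ATG38, for a subunit of the lipid kinase complex of autophagy. It held 24 and 19 reads in the nitrogen libraries, 2 and 0 in the potassium libraries, and 1 and 0 in the control libraries. YPL150W, for a putative kinase, lies on chromosome XVI, plus strand, at 268188 to 270893, ahead of ATG5, whose product is joined to Atg12 to extend the autophagosome membrane. It held 13 and 30 reads in the nitrogen libraries, 1 and 0 in the potassium libraries, and 1 and 1 in the control libraries. Nitrogen libraries were above all others for both, from counts near 0 elsewhere.

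YBR096W lies on chromosome II, plus strand, at 436021 to 436713, ahead of VPS15, for the regulatory subunit of the same lipid kinase. It held 20 and 21 reads in the nitrogen libraries, 7 and 6 in the potassium libraries, and 3 and 0 in the control libraries. ELP4, for a subunit of the Elongator complex that modifies transfer RNA, lies on chromosome XVI, plus strand, at 360209 to 361579. Its neighbour ATG21 encodes a phosphoinositide-binding protein of autophagy. ELP4 held 14 and 10 reads in the nitrogen libraries, 0 and 1 in the potassium libraries, and 0 and 2 in the control libraries. A short open reading frame, YPL102C, lies opposite 97 bases of ELP4 and held at most 4 reads in a library.

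**Figure D2:**
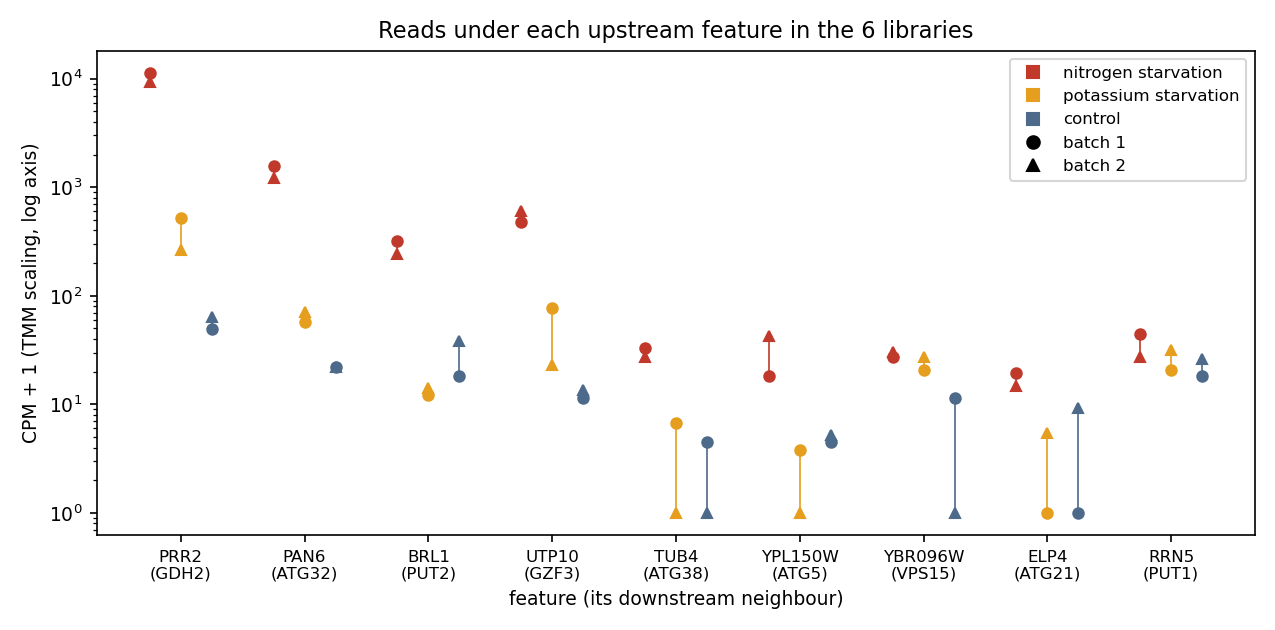
CPM plus 1 after TMM scaling, on a log axis, for each upstream feature with its downstream neighbour in brackets. Each point is 1 library (circles batch 1, triangles batch 2), a line joins the libraries of a group, and the nitrogen points lie above the control points for all 9 features.

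For all 9 features both nitrogen libraries lay above both controls in CPM, as did 45.7% of the 2325 features tested, or 74.2% when libraries were scaled over features opposite genes. Nitrogen values were in view when the 9 were picked, so this ordering is a description. The pooled ratio of nitrogen to control reads per effective library size was 188 for PRR2 (95% counting interval 131 to 281), 66.9 for PAN6 (37.3 to 134), 47.4 for UTP10 (21.7 to 129) and 10.6 for BRL1 (6.24 to 19.5). It was 15.3 for TUB4 (2.61 to 620), 7.67 for YPL150W (2.00 to 65.4), 4.88 for YBR096W (1.56 to 24.6), 4.28 for ELP4 (1.06 to 37.4) and 1.69 for RRN5 (0.870 to 3.59). These exact binomial intervals cover counting error only and are widest for TUB4, YPL150W and ELP4. Within each batch the PRR2 ratio was 233 in batch 1 and 149 in batch 2, and that of PAN6 was 74.9 and 58.6. RRN5 had 2.51 in batch 1 and 1.05 in batch 2. All these ratios used TMM effective sizes, 753657 and 721199 for the nitrogen libraries and 287069 and 239399 for the control libraries. With scaling over features opposite genes the pooled ratio was 465 for PRR2, 165 for PAN6, 117 for UTP10, 26.1 for BRL1 and 4.17 for RRN5. The choice of scale thus moved PRR2, PAN6, BRL1 and RRN5 beyond their counting intervals.

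In edgeR's quasi-likelihood fit over all 2325 features the log2 fold change of nitrogen against control was 7.54 (SE 0.46) for PRR2, 6.04 (SE 0.31) for PAN6, 5.53 (SE 0.55) for UTP10 and 3.37 (SE 0.43) for BRL1. It was 3.75 (SE 1.00) for TUB4, 2.86 (SE 0.90) for YPL150W, 2.24 (SE 0.81) for YBR096W, 2.01 (SE 1.05) for ELP4 and 0.73 (SE 0.53) for RRN5. At an adjusted p below 0.05, 7 of the 9 were called higher and ELP4 and RRN5 were not; 25.8% of all tested features were called higher, and since nitrogen values chose the 9, nothing is read from the difference. All 9 passed the filter on low counts, which the nitrogen libraries alone can satisfy. BRL1, TUB4, YPL150W, YBR096W, ELP4 and RRN5 held at most 9 reads in any other library, and UTP10 held more only in potassium library 1. These features thus passed the filter through the nitrogen libraries. The scale matters in nitrogen starvation: scaling over features opposite genes put the median of all tested features at a log2 fold change of 1.58, against 0.28 with TMM. On that scale all 9 were called, with RRN5 at 2.02, ELP4 at 3.24 and PRR2 at 8.84, while 57.1% of all tested features were called higher. Calls also moved with the fit. With DESeq2 TUB4, YPL150W and YBR096W were not called. In edgeR TUB4 was not called without control library 2 or without either nitrogen library, and YPL150W was not called without nitrogen library 2 or without either control library. YBR096W was not called with batch as a block, nor in 5 of the 6 fits that left out 1 library, the exception being the fit without control library 1. Leaving out 1 library put the log2 value of TUB4 between 2.97 (without control library 2) and 6.76 (without control library 1), that of YBR096W between 1.39 (without control library 2) and 6.69 (without control library 1), and that of ELP4 between 0.95 (without control library 1) and 5.96 (without control library 2). At each of the 3 upper ends the control library left in the fit held 0 reads, so the value depends on the prior count. That of YPL150W was 2.14 without nitrogen library 2, and that of BRL1 was 3.99 without control library 2.

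Per base of feature, the order in nitrogen-starved cells was PRR2 with 1433 and 989 TPM (the deposited level scaled to feature length and library total), PAN6 with 537 and 352, BRL1 with 63.5 and 40.9, UTP10 with 22.1 and 23.4, and YBR096W with 14 and 12.8. These 5 did not overlap with one another. RRN5 followed with 12.1 and 6.12 TPM, TUB4 with 6.35 and 4.40, ELP4 with 3.87 and 2.42, and YPL150W with 1.64 and 3.31. RRN5 overlapped with TUB4, and ELP4 with YPL150W. In control cells no feature of the 9 exceeded 1.76 TPM. UTP10 thus ranked above BRL1 in reads and below it per base, the deposited length of UTP10 being 5310 bases and that of BRL1 1416. If the reads lie in only part of a feature, its TPM understates the level there.

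The series concerns the response of yeast to potassium starvation. PRR2 and PAN6 rose in potassium-starved cells against control cells, and 0 of the 9 were called lower, where 4.6% of all tested features were. UTP10, TUB4, YPL150W, YBR096W and ELP4 held at most 3 reads in either control library, so a fall of these could not be detected. Nothing is therefore read from the absence of falls. PRR2 changed by 2.83 on the log2 scale (SE 0.43, adjusted p = 0.0066 by edgeR's quasi-likelihood test with Benjamini-Hochberg adjustment over 2325 features), with 521 and 261 CPM in potassium-starved cells and 48.8 and 62.7 CPM in control cells. The call held in each fit without 1 library (adjusted p up to 0.025) and was lost with limma on log2 TPM (adjusted p = 0.16). Its ratio was 10.7 in batch 1 and 4.16 in batch 2. PAN6 changed by 1.57 on the log2 scale (SE 0.38, adjusted p = 0.038), with 56.7 and 70.7 CPM in potassium-starved cells and 20.9 and 20.9 CPM in control cells, and ratios of 2.71 and 3.39 in batches 1 and 2. Its call held in the fit without nitrogen library 1 and was lost when any 1 of the other 5 libraries was left out (adjusted p up to 0.18). Thus 2 of 9 were called higher, where 4.73% of all tested features were, and the same 2 with scaling over features opposite genes, where 5.59% were. Both potassium libraries lay above both controls in CPM for PRR2, PAN6, UTP10 and YBR096W, 4 of the 9, as for 26.8% of all tested features. These comparisons share the control libraries with the nitrogen comparison.

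The other 7 features did not pass in potassium starvation. UTP10 had 2.17 on the log2 scale (SE 0.66, adjusted p = 0.075), with a ratio of 7.32 in batch 1 and 1.76 in batch 2, and YBR096W had 1.95 (SE 0.90, adjusted p = 0.21). Without potassium library 2 UTP10 was called, at 2.71 (adjusted p = 0.009), and without potassium library 1 it had 1.00 (adjusted p = 0.59). BRL1 had -1.13 (SE 0.58, adjusted p = 0.26). RRN5 had 0.23 (SE 0.61) and a pooled ratio of 1.16 with a counting interval of 0.488 to 2.82. TUB4, YPL150W and ELP4 held at most 2 reads in any potassium or control library, so a change was not detectable at this depth. Potassium library 2 held the fewest reads outside the ribosomal DNA, 239322 against 273773 in potassium library 1, with 40.5% and 23.8% of reads under the 17 features placed there. The part of this gap in the difference between the potassium libraries was not tested.

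**Figure D3:**
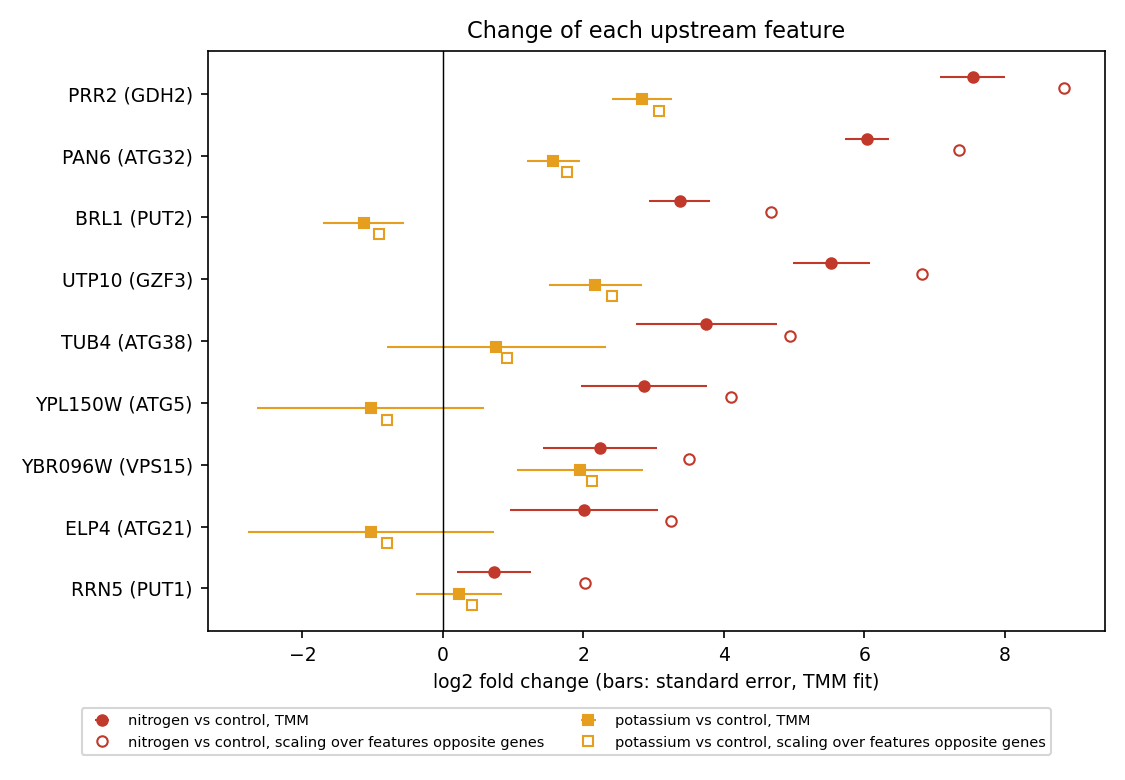
Log2 fold change of each upstream feature in nitrogen starvation (circles) and potassium starvation (squares), each against control. Filled symbols use TMM scaling with the standard error of the fit, open symbols use scaling over features opposite genes, and the nitrogen values run from 0.73 for RRN5 to 7.54 for PRR2 with TMM.

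Between the starvations, the pooled ratios of nitrogen to potassium reads of PRR2, PAN6 and BRL1 had overlapping intervals, at 24.7 (95% counting interval 21.8 to 28.2), 22.5 (16.2 to 32.2) and 23.3 (11.2 to 58.3). The ratio of UTP10 was 9.77 (6.86 to 14.4). YBR096W and RRN5 had 1.24 (0.651 to 2.52) and 1.46 (0.797 to 2.85), intervals that include 1. For this comparison 6 of the 9 were called higher, with 23.3% of all tested features, and the choice of the 9 again bars a reading. With scaling over features opposite genes 8 were called, YBR096W being the exception, with 49.4% of all features. On that scale the pooled ratios were 52.5 for PRR2, 47.8 for PAN6, 49.5 for BRL1, 20.8 for UTP10, 2.63 for YBR096W and 3.1 for RRN5.

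Under their own identifiers the 9 downstream neighbours held at most 30 reads in a library. GDH2 held 19 and 30 reads in the nitrogen libraries, 5 and 2 in the potassium libraries, and 7 and 7 in the control libraries. Its log2 fold change in nitrogen starvation was 0.32 (adjusted p = 0.62), or 1.61 with scaling over features opposite genes (adjusted p = 0.022). ATG5, the other neighbour with enough reads for a test, had -0.19 (adjusted p = 0.80), or 1.09 on the other scale (adjusted p = 0.16). ATG32, PUT2, GZF3, ATG38, VPS15, ATG21 and PUT1 held 0 to 11 reads in each library and were not tested. The upstream identifier held far more reads than its neighbour's in nitrogen starvation for PRR2 and GDH2, PAN6 and ATG32, UTP10 and GZF3, and BRL1 and PUT2. For ELP4 and ATG21 the counts were close, with 14 and 10 reads under ELP4 and 11 and 7 under ATG21 in the nitrogen libraries. Those of YPL150W and ATG5 were close in nitrogen library 1 alone, with 13 and 30 reads under YPL150W and 11 and 11 under ATG5.

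The same position was examined for every gene on a list of 48 nitrogen-use genes and a list of 42 autophagy genes, of which 89 were found in the annotation. Of these, 40 had a feature upstream on the same strand, the 9 described and 31 others, and 49 had one on the opposite strand. Among the 31 others, 14 held enough reads to be tested, and in nitrogen starvation 8 rose, 1 fell and 5 did not pass. The filter can be passed through the nitrogen libraries alone, as for DIM1, which held 0 reads in the 4 other libraries, so these counts depend on the outcome and the shares are a description. That is 57.1% higher, beside 25.8% of all tested features (20.4% were lower) and 36.9% of 993 tested features that lie upstream of any gene on the same strand. With scaling over features opposite genes 9 of 14 were called higher (64.3%), beside 57.1% and 70.4%, so the share was not above that of all tandem features on that scale. Over the 14 the log2 fold change had a median of 2.05, or 1.5 with the 2 features at 0 in control set to their bound, against 0.97 and 0.96 for all tandem features. By list, 7 of 10 tested features ahead of nitrogen-use genes rose and 0 fell, and ahead of autophagy genes 1 of 4 rose and 1 fell. Of these features, DAL3 (called higher) and DAL4 (not called) are themselves genes of the nitrogen-use list. Among the 49 features upstream on the opposite strand, 15 were tested, of which 6 rose and 3 fell (40% and 20%), beside 29.8% higher and 12.5% lower among all such features tested. With scaling over features opposite genes 9 were called higher (60%) and 1 lower, beside 63.7% higher among all such features tested. The share higher was thus not above that of all such features on that scale. The tested opposite-strand features also include genes of the nitrogen-use list, namely DAL1, DAL4 and CAN1.

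DIM1, for a ribosomal RNA methyltransferase, lies 965 bases ahead of DIP5, a permease for glutamate and aspartate. It held 265 and 202 reads in the nitrogen libraries and 0 in each of the 4 others, which is at least 27.8-fold higher than control with control counted at 3 reads per library (adjusted p = 1.5e-04). GTS1, 968 bases ahead of ATG1, the kinase gene that starts autophagy, held 183 and 199 reads in the nitrogen libraries, 3 and 1 in the potassium libraries, and 1 and 1 in the control libraries (log2 5.99, SE 0.52, adjusted p = 5.8e-05). Both features were thus near 0 outside nitrogen starvation. TAT1, an amino acid permease gene ahead of BAP2, another permease gene, held 164 and 260 reads in nitrogen starvation against 13 and 10 in control (log2 2.72, SE 0.40, adjusted p = 9.3e-04). Reads under ARP7, a chromatin remodelling gene ahead of the glutamine synthetase gene GLN1, rose by 3.35 on the log2 scale (SE 0.64, adjusted p = 0.0033). DIM1, GTS1 and ARP7, and IPI3 and DAL3 below, held at most 5 reads in any potassium or control library. They passed the filter through the nitrogen libraries, so their adjusted p-values in nitrogen starvation are a description.

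IPI3, a ribosome assembly gene ahead of NPR1, which encodes a kinase regulating permeases, held 34 and 24 reads in nitrogen starvation against 0 and 1 in control (log2 4.17, SE 0.93, adjusted p = 0.0082). Without nitrogen library 1 it did not pass (adjusted p = 0.067). DAL3, ahead of DAL7 in the allantoin cluster, held 15 and 10 reads in the nitrogen libraries and 0 in both controls, at least 1.49-fold higher. Its call (adjusted p = 0.036) was lost with DESeq2, with batch as a block (adjusted p = 0.058) and without either control or either nitrogen library (up to 0.15). The fall was that of RPL36B, a ribosomal protein gene ahead of ATG41, with 0 and 1 reads in nitrogen starvation against 16 and 12 in control (log2 -5.78, adjusted p = 9.2e-04); its reads can be shared with the copy RPL36A. In potassium starvation 1 of the 14 rose (7.14%) and 0 fell, where 4.73% of all tested features rose and 4.6% fell, so the share was near the background. This was SRO9, for an RNA-binding protein, 846 bases ahead of the vacuolar amino acid exporter gene ATG22, with 162 and 66 reads in the potassium libraries against 6 and 1 in the control libraries (log2 4.81, SE 0.56, adjusted p = 0.0030). It was called in all alternatives but limma on log2 TPM (adjusted p = 0.082). In nitrogen starvation SRO9 held 4 and 5 reads, the opposite of PRR2's order between the starvations.

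**Figure D4:**
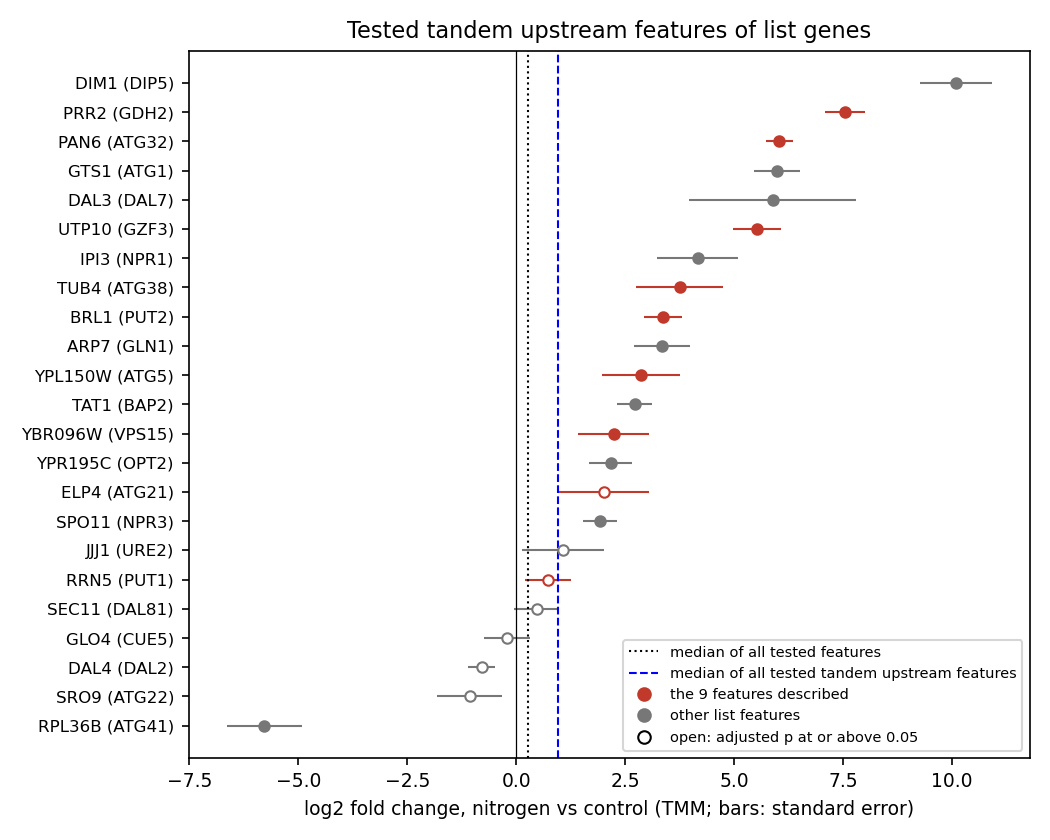
Log2 fold change in nitrogen starvation against control, with standard error, of the 23 tested features that lie upstream of a list gene on the same strand (that gene in brackets). Red points are the 9 described, grey points the other 14, and the lines are the medians of all tested features (0.28) and of all tested tandem features (0.97); DIM1 and DAL3 held 0 reads in control, so their places depend on the fit's prior.

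GATAAG was also searched in the windows of the genes behind these 14. The downstream genes DAL7 and NPR3 held it and the feature ahead of each was called higher, DAL2 and DAL81 held it and the feature ahead of each was not, while the other 6 features called higher lie ahead of genes whose windows held none. In all, 42.6% of 47 nitrogen-use windows and 23.8% of 42 autophagy windows held the motif, against 14.7% of all. At least 3 sites were held by 4 of the 47 and 1 of the 42. Without the neighbours of the 9 features, 3 of 43 nitrogen-use windows and 0 of 37 autophagy windows did so.

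The profile of the 9 across the 6 libraries, taken as their median log2(CPM + 1), was most like those of SLM5, ADK1, RPS29A, SAN1 and LEU1 among 2242 other features with a mean of at least 10 CPM. Pearson's r over the 6 libraries ran from 0.9936 for LEU1 to 0.9971 for SLM5, which is a description, since the libraries fall into 3 groups. SLM5, a mitochondrial asparaginyl-tRNA synthetase gene, held 118 and 124 reads in the nitrogen libraries, 12 and 11 in the potassium libraries, and 3 and 4 in the control libraries. SAN1, for a nuclear ubiquitin ligase, held 254 and 251 reads in the nitrogen libraries, 19 and 17 in the potassium libraries, and 5 and 4 in the control libraries. LEU1, for an enzyme of leucine synthesis, held 35 and 31 reads in the nitrogen libraries, 1 and 1 in the potassium libraries, and 0 in both controls. None of the 5 lies directly upstream of a list gene, and RPS29A can share reads with its near-identical copy RPS29B.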

How the data were processed

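Each library came from 1 sample of BY4741 and was made with a KAPA poly(A) kit (mRNA HyperPrep), per the labels' protocols. The authors deposited, for 7127 features per library, estimated counts, which need not be whole, and TPM; the columns are those salmon writes, per the file headers. STAR 2.7.3a, DESeq2 and build R64 are named in the submitters' processing notes; no version of the quantifier and no setting for strand is given in the sources used here. A deposited table of the same reads divided by size factors was not used.

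Estimated counts were rounded (those of the 9 features were whole within 0.001 reads) and tested with edgeR 4.0.16 in R 4.3.3: TMM scaling, filterByExpr, 1 fit of 6 libraries with 3 group means and 3 residual degrees of freedom, glmQLFTest, Benjamini-Hochberg over 2325 features, called at adjusted p below 0.05. SE is the log2 fold change divided by the square root of the F statistic. The fitting step was run on simulated counts with as many rises as falls, which cannot test the choice of scale. Exact binomial intervals at 95% on pooled reads cover counting error only; a fold against 0 reads uses a floor of 3 reads per library. Features were placed by the RefSeq R64 annotation (6047) or, where it lists none, by a unique reading frame as long as the file says between the neighbours by number (580); of 5671 intronless genes searched the same way, 5484 were found once at their annotated place. A feature counts as opposite a gene when 50% of it, and 100 bases, lie opposite exactly 1 gene, protein-coding (364 features, 339 tested). A tandem upstream neighbour is the nearest protein-coding gene before the start, on the same strand. Alternatives were DESeq2 1.42.0, limma 3.58.1 on log2(TPM + 1), other scalings, no filter, batch as a block, 2 groups alone and leaving out each library. The batch number is given by the labels, so same-numbered libraries are paired; deviations from group means of same-batch libraries correlated at -0.001, 0.001 and 0.064. The 9 features and the lists were chosen with earlier results of these data known. DUR1,2 of the lists was not matched by that symbol. Named features were the 9, their neighbours, up to 6 rises and 4 falls among called list features in nitrogen starvation and up to 3 each way in potassium starvation, and the 5 most alike in profile. GATAAG and GATA were searched on both strands.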

Additional observations from a re-analysis of the deposited data

How the results depend on the processing

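With the main settings 7 of the 9 features were called higher in nitrogen against control, 4 with DESeq2 and 4 to 6 when 1 library was left out, the lowest without control library 2 or nitrogen library 2. In potassium against control 2 were called, 1 with no filter on low counts, 0 with limma on log2 TPM and 1 to 2 when 1 library was left out. In nitrogen against potassium 6 were called, and 4 to 6 when 1 library was left out. Among the other tandem features of the lists, 8, 1 and 7 were called higher in these 3 comparisons, and 1, 0 and 3 lower. In nitrogen against potassium that was 50% higher and 21.4% lower, beside 23.3% and 19.4% of all tested features. These shares are a description, since the filter can be passed through the nitrogen libraries alone. With limma on log2 TPM 0 of them were called higher in potassium against control and 11 in nitrogen against potassium. With the replicate block, 6 of the 9 were called in nitrogen against control; YBR096W lost its call there, DAL3 lost its call among the named list features, and no other call of the 9 or of those features changed. Leaving out 1 library turned the direction of 4 values, none of them called: TUB4 (-2.98 to 3.75), ELP4 (-3.95 to 2.92) and RRN5 (-0.09 to 0.61) in potassium against control, and YBR096W (-0.05 to 0.49) in nitrogen against potassium. Of 367 values of single features under alternatives, 313 kept direction and side of the threshold, 33 lost a call, 14 gained one and 7 turned; the cause was not tested. A further 11 could not be given because the feature fell below the filter. Over all tested features 601 were called higher in nitrogen against control with TMM, 1327 with scaling over features opposite genes, 1458 with library size alone, 398 without nitrogen library 2 and 1545 with limma on log2 TPM. Depth limits TUB4, YPL150W, YBR096W and ELP4, whose control libraries held 0 to 3 reads. It also limits the ratios of UTP10 to control, since UTP10 held 3 and 3 reads there.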
